A study of Mus musculus with 7 samples.

Results

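The RNA level of 8 tuft cell genes was examined in whole colon tumors. They were the transcription factors Pou2f3 and Gfi1b, the channel Trpm5, the cytoskeletal protein gene Avil, the kinase gene Dclk1, the adaptor gene Sh2d6, the leukotriene synthesis gene Alox5ap and the cytokine gene Il25. All 8 were found in the table of 43346 genes. Of these, 5 had enough counts to be among the 15810 genes tested, namely Avil, Alox5ap, Sh2d6, Dclk1 and Trpm5.

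Tuft cells are rare chemosensory cells of the gut epithelium. They read luminal signals through taste-type receptors that open the cation channel Trpm5, and they depend on the POU-domain transcription factor Pou2f3. In the intestine they are known as the epithelial source of Il25, a cytokine that activates group 2 innate lymphoid cells, and of leukotrienes and prostaglandins made from arachidonic acid, and Dclk1 is widely used to mark them.

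The tumors came from 7 mice and addressed whether loss of 1 Dnmt3a allele in the blood changes colon tumors that arise with inflammation. Wild type recipients, C57BL6/J in the labels and congenic with the donors per the methods, received bone marrow (BM) that was Dnmt3a(+/-) in 4 mice and Dnmt3a(+/+) in 3 mice, and every recipient was then given the carcinogen azoxymethane (AOM) once (10 mg/kg) and then dextran sulfate sodium (DSS), which injures and inflames the colon, at 3% in 3 cycles. The labels give the recipients' age as 8 weeks, whereas the methods give a younger age. The tumors belonged to 2 transplantation experiments. BMT18 supplied Dnmt3a(+/+) replicates 1 and 2 and Dnmt3a(+/-) replicates 1 and 2, and BMT8 supplied Dnmt3a(+/+) replicate 3 and Dnmt3a(+/-) replicates 3 and 4. Per the methods, donors of both genotypes carried the interferon-inducible Mx1-Cre and received poly(I:C), and the recipients were lethally irradiated, so all groups share Mx1-Cre, irradiation, transplantation and AOM/DSS. Tuft cells are epithelial and would come from the wild type recipient in both groups, whereas the graft supplies the blood cells. Total counts ranged from 38472738 to 64314999 per tumor. Values are CPM, counts scaled to a common library size by TMM. Dnmt3a itself measured 20.2 to 24.3 CPM with Dnmt3a(+/+) BM and 22.0 to 43.0 CPM with Dnmt3a(+/-) BM, and since only blood cells carry the deletion, its level in a whole tumor is no check of the labels. A whole tumor mixes epithelium, stroma and leukocytes, and in such bulk RNA fewer cells of a type and less RNA per cell cannot be told apart.

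Transcripts of most of the 8 genes were scarce. Per kilobase of exon, the mean over 7 tumors was 16.3 CPM for Avil, 1.91 for Alox5ap, 0.509 for Sh2d6, 0.0954 for Pou2f3, 0.0638 for Trpm5, 0.0535 for Dclk1 and 0.0457 for Gfi1b, and Il25 had no count. Avil therefore stood apart from the rest: it held 77.8% to 96.6% of the counts of the 8 genes in a tumor, and its level per kilobase was 79.6 to 460 times that of Trpm5. Among Pou2f3, Trpm5, Dclk1 and Gfi1b, the ranges over the tumors overlapped, so that their order by level is not fixed by these data. Pou2f3, Trpm5 and Dclk1 thus reached at most 1.96 CPM in any tumor, and the tuft cell label rests on few reads.

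Pou2f3, the master transcription factor of tuft cells, lies on the minus strand of chromosome 9 of GRCm38 from 43123939 to 43210369 (ENSMUSG00000032015). It had 7, 11 and 0 counts in the 3 Dnmt3a(+/+) tumors, or 0.19, 0.17 and 0.00 CPM. In Dnmt3a(+/-) replicates 1 to 4 it had 56, 6, 9 and 0 counts, or 1.40, 0.12, 0.18 and 0.00 CPM. A single tumor, Dnmt3a(+/-) replicate 1, was high and held 67.8% of the summed CPM, while the other 6 tumors overlapped entirely and 1 tumor of each group was at 0. The gene was too low to pass the filter, and the exact permutation test on log2 CPM gave a two-sided p of 0.743. Pou2f3 is also known from stratified squamous epithelium. Markers of that tissue (10 of 10 detected, among them the keratins Krt13 and Krt14) summed to 28400 CPM in Dnmt3a(+/-) replicate 1. However, Dnmt3a(+/+) replicate 1, with a similar sum of 26700 CPM, had 0.19 CPM of Pou2f3. The other tumors ranged from 312 CPM in Dnmt3a(+/-) replicate 2 to 5800 CPM. The part of squamous epithelium in the Pou2f3 reads was not tested.

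Gfi1b encodes a zinc finger repressor that tuft cells share with megakaryocyte and erythroid progenitors. It lies on the minus strand of chromosome 2 from 28609450 to 28621982 (ENSMUSG00000026815). Only 26 counts were seen in all: 0, 2 and 4 in the Dnmt3a(+/+) tumors and 4, 3, 12 and 1 in the Dnmt3a(+/-) tumors. The groups overlapped, with the highest count in Dnmt3a(+/-) replicate 3 (exact permutation test on log2 CPM, two-sided p = 0.4). Of 10 megakaryocyte and erythroid markers, none was at 0 in every tumor, but 4 were too low to be tested. Their summed CPM, led by the platelet chemokine gene Ppbp and the transferrin receptor gene Tfrc, ranged from 485 to 2420 with Dnmt3a(+/+) BM and from 168 to 1600 with Dnmt3a(+/-) BM. In each group it was highest in replicate 1, and these are also the 2 tumors highest in squamous markers. Their part in the Gfi1b counts was not tested.

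Trpm5 encodes the cation channel that depolarizes the cell at the end of taste-type signaling. It lies on the minus strand of chromosome 7 from 143069153 to 143094642 (ENSMUSG00000009246). Trpm5 measured 0.32, 0.37 and 0.21 CPM in the Dnmt3a(+/+) tumors and 0.20, 0.77, 0.57 and 0.41 CPM in Dnmt3a(+/-) replicates 1 to 4. The highest 3 values were from Dnmt3a(+/-) tumors, but so was the lowest, and the groups overlapped. The means were 0.304 ± 0.0819 CPM (SD, n = 3) and 0.487 ± 0.244 CPM (SD, n = 4), a log2 fold change of 0.67 ± 0.55 (SE, unadjusted p = 0.26 and adjusted p = 0.682 by edgeR's quasi-likelihood test). It was 0.39 without Dnmt3a(+/-) replicate 2 and 0.50 within BMT18 alone.

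Avil encodes advillin, an actin-binding protein of the villin family that marks tuft cells and is also known from sensory neurons. It lies on the plus strand of chromosome 10 from 127000709 to 127020994 (ENSMUSG00000025432). Pou2f3 and other POU factors bind the octamer sequence, so the 300 bases around the start of each gene (250 before and 50 after, RefSeq on GRCm38.p6) were searched on both strands for its 7-base core ATGCAAA, whose reverse complement is TTTGCAT. Windows were at hand for 5 of the 8 genes, with 6 windows in all, 2 of them for Dclk1. The Avil window held 2 matches, which begin 115 and 15 bases before the start, and the windows of Trpm5, Dclk1, Sh2d6 and Gfi1b held none. The core occurred in 4.63% of all 32851 windows. The full octamer ATGCAAAT occurred in 1.74% of windows and in none of these 6. The windows of Avil, the gene with matches, and of Trpm5, a gene without one, are shown 5′ to 3′ on the gene's strand, with the matches in capitals. Avil spans chr10:127000459-127000758 on the plus strand and Trpm5 spans chr7:143094593-143094892 on the minus strand. A match describes letters only, and binding was not measured here.
Avil: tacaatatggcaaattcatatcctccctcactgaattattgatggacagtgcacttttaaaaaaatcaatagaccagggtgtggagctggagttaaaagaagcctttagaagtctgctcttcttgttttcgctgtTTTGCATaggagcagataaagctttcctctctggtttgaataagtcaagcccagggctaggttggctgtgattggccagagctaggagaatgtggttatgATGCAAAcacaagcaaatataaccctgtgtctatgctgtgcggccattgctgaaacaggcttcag
Trpm5: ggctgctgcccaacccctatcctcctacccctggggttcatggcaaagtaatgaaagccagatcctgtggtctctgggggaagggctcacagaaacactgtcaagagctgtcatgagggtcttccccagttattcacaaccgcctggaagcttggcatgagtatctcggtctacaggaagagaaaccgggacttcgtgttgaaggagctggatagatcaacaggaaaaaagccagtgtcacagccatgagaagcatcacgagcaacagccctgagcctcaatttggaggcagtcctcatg

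Among the 5 genes tested, Avil had the largest difference between the groups. It measured 16.7, 15.8 and 51.5 CPM in Dnmt3a(+/+) replicates 1 to 3 (622, 1014 and 1684 counts). In Dnmt3a(+/-) replicates 1 to 4 it measured 48.7, 87.8, 80.9 and 86.8 CPM (1953, 4308, 3985 and 3212 counts). Every Dnmt3a(+/-) tumor was above Dnmt3a(+/+) replicates 1 and 2, and the groups overlapped only because Dnmt3a(+/+) replicate 3 exceeded Dnmt3a(+/-) replicate 1. The means were 28.0 ± 20.3 CPM (SD, n = 3) and 76.1 ± 18.5 CPM (SD, n = 4), a log2 fold change of 1.44 ± 0.46 (SE), or 2.72-fold. edgeR's quasi-likelihood test gave an unadjusted p of 0.0147 and an adjusted p of 0.392, so Avil was not called at an adjusted p under 0.05. DESeq2 gave 1.45, with an adjusted p of 0.0629, and the exact permutation test on log2 CPM gave a two-sided p of 0.0571, against a smallest possible p of 0.0286.

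The tumor that closed the gap between the groups, Dnmt3a(+/+) replicate 3, came from BMT8. Within BMT18 the 2 Dnmt3a(+/-) tumors were above both Dnmt3a(+/+) tumors. Within BMT8 the 2 Dnmt3a(+/-) tumors were above the only Dnmt3a(+/+) tumor. This held for Avil alone among the 8 genes, and for 12.5% of all genes tested. The log2 fold change of Avil was 2.08 in BMT18 alone (standard error 0.35, unadjusted p = 0.00355, adjusted p = 0.489 by edgeR) and 1.49 with the experiment as a covariate (standard error 0.34, adjusted p = 0.261). BMT8, with a single Dnmt3a(+/+) tumor, was not tested alone. Leaving out 1 tumor at a time gave log2 fold changes from 1.16, without Dnmt3a(+/+) replicate 2, to 2.23, without Dnmt3a(+/+) replicate 3. The unadjusted p stayed under 0.05 in 6 of these 7 fits and was 0.0504 without Dnmt3a(+/+) replicate 1.

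The plot of Avil by experiment shows these 7 values.

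**Figure D1:**
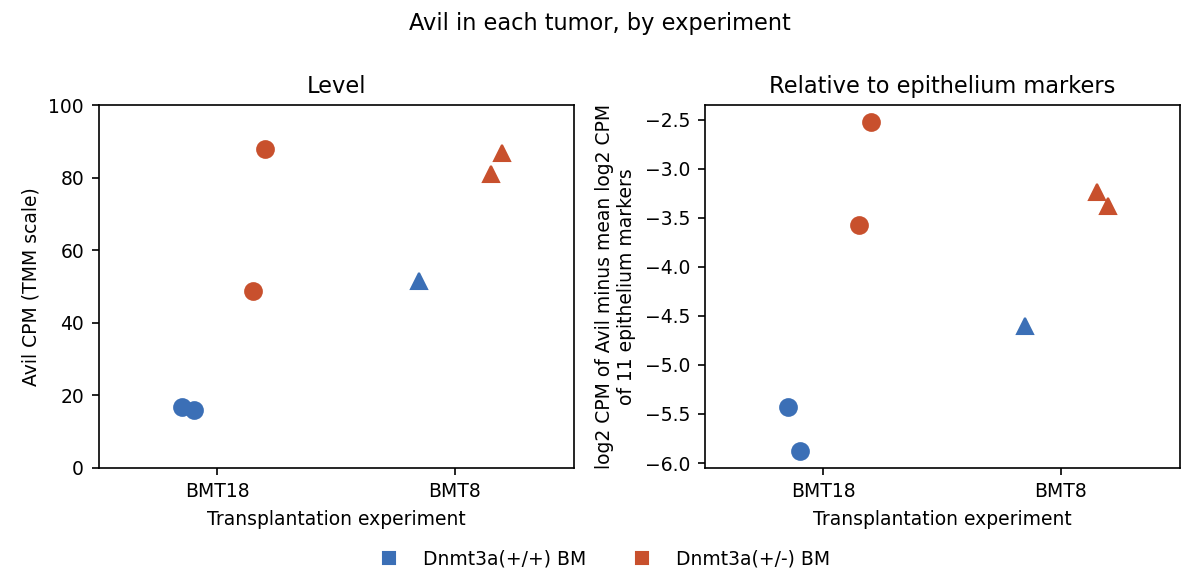
Avil in each tumor, with BMT18 and BMT8 on the horizontal axis. The left panel gives CPM, where the Dnmt3a(+/-) tumors (red, 48.7 to 87.8 CPM) sit above the Dnmt3a(+/+) tumors (blue, 15.8 to 51.5 CPM) of the same experiment, and the right panel gives log2 CPM of Avil minus the mean log2 CPM of 11 epithelium markers, where the groups do not overlap.

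Because tuft cells belong to the epithelium, each gene was also set against 11 epithelium markers, such as Krt8 and Krt19, in the same tumor. This comparison was added after seeing the data. Summed CPM of the markers was 19500 to 38800 with Dnmt3a(+/+) BM and 10700 to 24700 with Dnmt3a(+/-) BM, and 10 of the 11 had a log2 fold change below 0 (8 on plain library sizes). At an unadjusted p under 0.05, 3 of the 11 were lower, against 5.2% of all genes, and 1 was higher (Cdx2, at 0.79; edgeR). DESeq2 called Cdx1 (-1.13, adjusted p = 0.0226). On this relative log2 scale Avil was at -5.43, -5.88 and -4.60 in the Dnmt3a(+/+) tumors and at -3.57, -2.52, -3.24 and -3.38 in the Dnmt3a(+/-) tumors. The groups no longer overlapped, and the difference in means was 2.13 (exact permutation test, two-sided p = 0.0286, the smallest possible), against 1.63 (p = 0.0571) before the markers were subtracted. Because the markers were lower in the Dnmt3a(+/-) tumors, the subtraction raised the difference of every gene by the same 0.50, so that this part of the rise is not particular to Avil. The same separation was seen for 19.0% of all genes tested, and for none of the other 6 detected tuft cell genes, whose differences ranged from 0.59 for Alox5ap to 1.26 for Pou2f3 and whose groups overlapped.

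Exons of Avil share 165 bases, 4.9% of its exon length, with those of Tsfm, a mitochondrial translation factor gene on the opposite strand. Whether strand was used in counting is not given in the sources used here. Trpm5 likewise shares 220 exon bases (3.4%) with Tssc4 on the opposite strand, and Alox5ap 189 (13.3%) with the antisense gene Gm19719. Tsfm measured 27.2 to 49.1 CPM in the Dnmt3a(+/+) tumors and 28.3 to 43.4 CPM in the Dnmt3a(+/-) tumors, and the groups overlapped. Markers of enteric neurons and glia were also considered, since advillin is known from neurons, and their summed CPM was 10.5 to 12.7 with Dnmt3a(+/+) BM and 21.2 to 41.8 with Dnmt3a(+/-) BM. The leading gene of that sum was the receptor tyrosine kinase gene Ret (log2 fold change 2.03, unadjusted p = 0.00107, adjusted p = 0.361 by edgeR). None of these markers was at 0 in every tumor. The 6 tested markers all had a log2 fold change above 0, Tubb3 at 0.78 among them, beside 50.2% of all genes. DESeq2 called Ret (adjusted p = 0.000262), beside 1.9% of all genes. Across the 7 tumors, Avil and the mean log2 CPM of these markers had a Pearson's r of 0.39 (exact permutation p = 0.429, adjusted p = 0.739) and a Spearman's rho of 0.79 (exact permutation p = 0.048, adjusted p = 0.381), both two-sided and adjusted over 69 relations. Without the 2 tumors farthest from the median of the markers, Dnmt3a(+/+) replicate 3 and Dnmt3a(+/-) replicate 2, r was 0.98. The first of these goes against the relation: it had the lowest marker mean of all tumors, -0.90, and the highest Avil level of its group, 51.5 CPM. The r of 0.98 thus depends on leaving it out. Avil had the same rho of 0.79 with fibroblast markers (exact permutation p = 0.048, adjusted p = 0.381), so this rank relation is not particular to nerve markers. With enteroendocrine markers Pearson's r was -0.78 (exact permutation p = 0.0405, adjusted p = 0.395). The part of nerve cells in the Avil reads was not tested beyond these values.

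Dclk1 encodes a doublecortin-like kinase, the most used tuft cell marker in mice, which is also known from neurons. It lies on the plus strand of chromosome 3 from 55242364 to 55539068 (ENSMUSG00000027797). Dclk1 measured 0.46, 0.59 and 0.64 CPM in the Dnmt3a(+/+) tumors and 0.47, 1.96, 1.18 and 0.43 CPM in the Dnmt3a(+/-) tumors. Replicates 2 and 3 of the Dnmt3a(+/-) group were above every Dnmt3a(+/+) tumor, and replicates 1 and 4 were level with the lowest Dnmt3a(+/+) tumor. The means were 0.564 ± 0.0962 CPM (SD, n = 3) and 1.01 ± 0.717 CPM (SD, n = 4), and the log2 fold change was 0.84 ± 0.62 (SE, unadjusted p = 0.212 and adjusted p = 0.64 by edgeR; 1.23 in BMT18 alone). It was 0.34 without Dnmt3a(+/-) replicate 2. The same tumor had the highest sum of 10 fibroblast markers, 1070 CPM against 177 to 380 CPM in the other 6 tumors. Over all 7 tumors Dclk1 and the mean log2 CPM of these markers had a Pearson's r of 0.74 (exact permutation p = 0.101, adjusted p = 0.395) and a Spearman's rho of 0.07 (exact permutation p = 0.906, adjusted p = 0.963), both two-sided. Without the 2 tumors farthest from the median r was -0.37, so the positive r rests on them, and the part of stroma in the Dclk1 reads was not tested beyond these values. A larger r, of the opposite sign, was seen with the megakaryocyte and erythroid markers. It was -0.88 (exact permutation p = 0.00516, adjusted p = 0.322), and also -0.88 without the 2 tumors farthest on that measure.

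Sh2d6, which encodes an SH2 domain adaptor enriched in tuft cells, lies on the minus strand of chromosome 6 from 72513641 to 72521707 (ENSMUSG00000052631). It measured 0.27, 0.37 and 0.83 CPM in the Dnmt3a(+/+) tumors and 0.07, 2.28, 0.95 and 1.24 CPM in the Dnmt3a(+/-) tumors. The 3 highest values belonged to Dnmt3a(+/-) replicates 2, 3 and 4, and the lowest to replicate 1 of the same group, with 3 counts. The log2 fold change was 1.22 ± 0.94 (SE, unadjusted p = 0.232 and adjusted p = 0.661 by edgeR; 1.89 in BMT18 alone), and the group means were 0.49 ± 0.296 CPM (SD, n = 3) and 1.14 ± 0.91 CPM (SD, n = 4). Single tumors moved it widely: it was 1.65 without Dnmt3a(+/-) replicate 1 (unadjusted p = 0.031 by edgeR), 0.67 without Dnmt3a(+/-) replicate 2 and 1.82 without Dnmt3a(+/+) replicate 3.

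Alox5ap encodes the protein that presents arachidonic acid to 5-lipoxygenase for leukotriene synthesis, in tuft cells and also in leukocytes. It lies on the plus strand of chromosome 5 from 149264767 to 149288153 (ENSMUSG00000060063). Alox5ap measured 3.52, 1.73 and 1.99 CPM in the Dnmt3a(+/+) tumors and 4.14, 4.62, 2.01 and 0.92 CPM in the Dnmt3a(+/-) tumors. Both groups spanned high and low tumors, with the highest and the lowest value in the Dnmt3a(+/-) group, and the 3 highest tumors were all from BMT18. The means were 2.41 ± 0.966 CPM (SD, n = 3) and 2.92 ± 1.75 CPM (SD, n = 4), a log2 fold change of 0.28 ± 0.59 (SE, unadjusted p = 0.65 and adjusted p = 0.904 by edgeR; 0.75 in BMT18 alone). Its sign turned without Dnmt3a(+/-) replicate 2, to -0.02.

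Across the 7 tumors Alox5ap followed markers of leukocytes. With the mean log2 CPM of 10 leukocyte markers, such as Lcp1 and Coro1a, Pearson's r was 0.87 (exact permutation p = 0.00933, adjusted p = 0.322) and Spearman's rho 0.93 (exact permutation p = 0.00675, adjusted p = 0.233), both two-sided, and r was 0.79 without the 2 tumors farthest from the median. With 10 macrophage markers, led by Lyz2 and C1qb, r was 0.85 (exact permutation p = 0.0175, adjusted p = 0.395) and rho 0.96 (exact permutation p = 0.00278, adjusted p = 0.192), and r was 0.83 without the 2 tumors farthest on that measure. The adjustment was over the 69 relations computed, and none of them passed it. BMT18 has 4 tumors and BMT8 has 3, too few for a correlation to be given within either. In BMT18 the summed leukocyte markers of 173, 68.6, 181 and 277 CPM stood beside 3.52, 1.73, 4.14 and 4.62 CPM of Alox5ap, in the same order, and in BMT8 145, 115 and 63.6 CPM stood beside 1.99, 2.01 and 0.92 CPM. Summed CPM of the leukocyte markers, all detected, was 68.6 to 173 with Dnmt3a(+/+) BM and 63.6 to 277 with Dnmt3a(+/-) BM, and their part in the Alox5ap reads was not tested beyond these correlations.

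Il25, on the plus strand of chromosome 14 from 54932695 to 54935837 (ENSMUSG00000040770), had 0 counts in all 7 tumors. A count of 0 allows a level of up to 3 counts, or 0.0468 to 0.0918 CPM depending on the tumor, for counting error only. Il25 was therefore not detectable at this depth in either group.

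**Figure D2:**
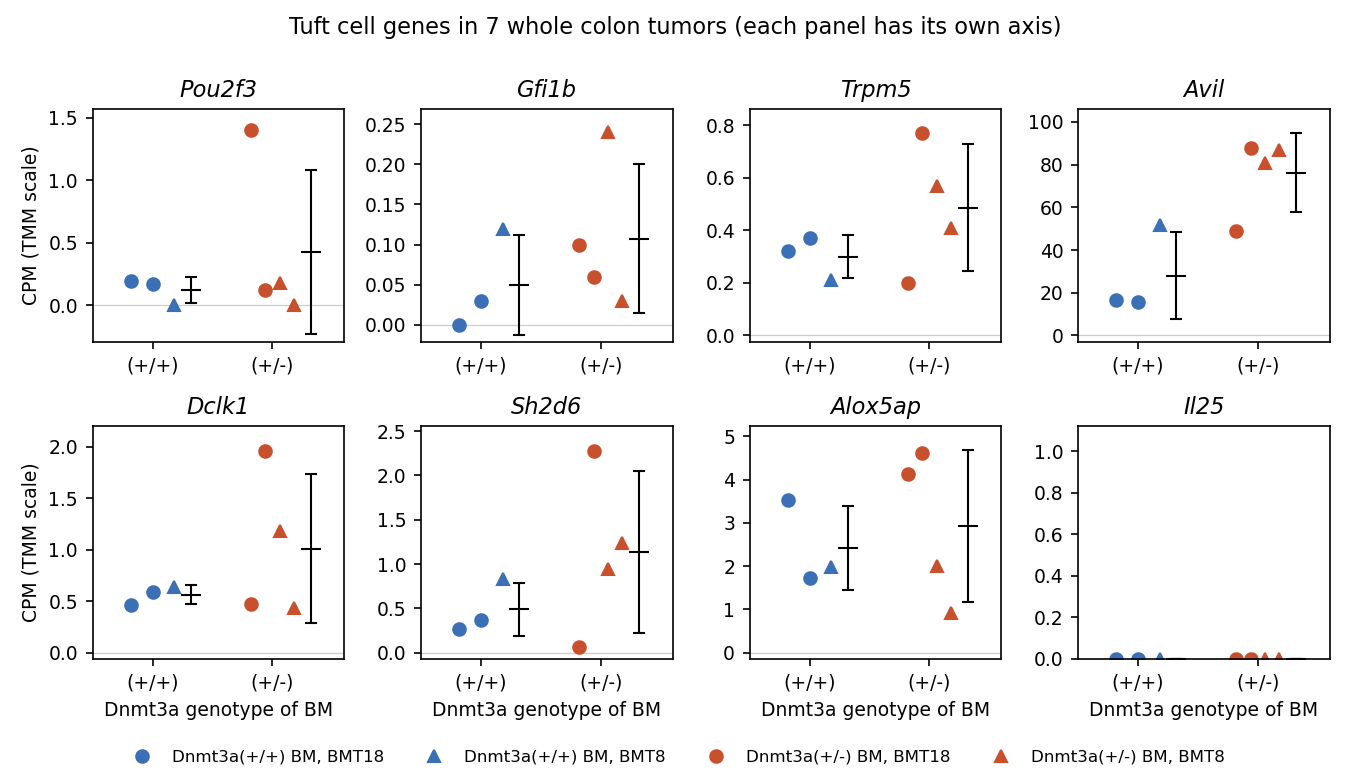
CPM (vertical axis, on TMM-scaled library sizes, a separate axis for each gene) of the 8 tuft cell genes in each tumor, by Dnmt3a genotype of the BM (horizontal axis). Circles are BMT18 and triangles BMT8, and the black bar beside each group is its mean ± SD; Avil, Trpm5 and Sh2d6 each have 3 Dnmt3a(+/-) tumors above every Dnmt3a(+/+) tumor, with replicate 1 among or below the Dnmt3a(+/+) tumors, Pou2f3 has a single high tumor, and Il25 is at 0.

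**Figure D3:**
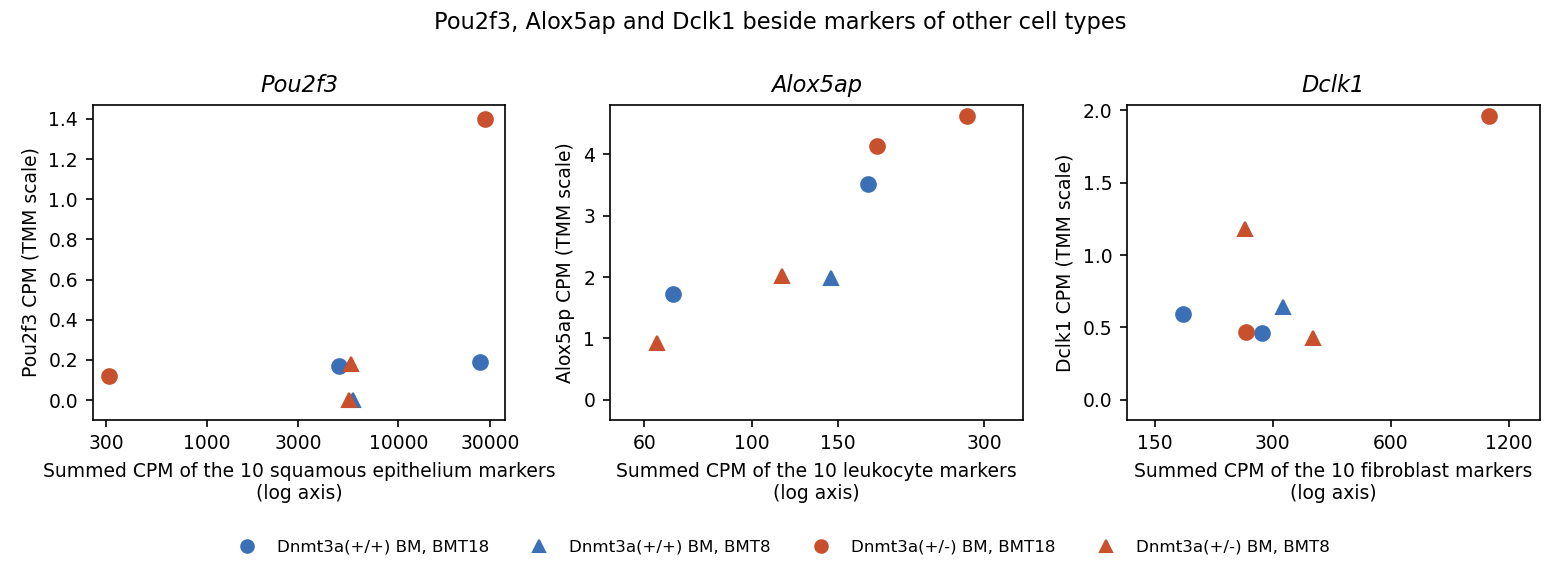
CPM of Pou2f3, Alox5ap and Dclk1 in each tumor (vertical axes) against the summed CPM of 10 squamous epithelium, 10 leukocyte or 10 fibroblast markers (horizontal log axes). Alox5ap is higher in tumors with more leukocyte markers, whereas of the 2 tumors high in squamous markers (26700 and 28400 CPM) only 1 has a high Pou2f3 level, and the tumor with the highest Dclk1 level also has the highest sum of fibroblast markers.

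As a group, the tuft cell genes were not called. With edgeR, 0 of 5 passed both thresholds (adjusted p under 0.05, log2 fold change beyond 1 in size), as did 0.0% of all genes tested, and DESeq2 called 0 of 5 against 1.9% of all genes (300). At an unadjusted p under 0.05 with edgeR, 1 of 5 was higher, namely Avil, and 0 were lower, beside 5.83% of all genes higher (922) and 5.2% lower (822). On plain library sizes 1687 genes were higher and 288 lower. Avil alone among the 5 also had an unadjusted p under 0.05 in BMT18 alone (9.52% of all genes), with the experiment as a covariate (14.7%) and without the 2 tumors highest in squamous markers, an alternative added after seeing the data (8.80%; Avil at 1.39 ± 0.48, SE). All 5 had a log2 fold change above 0, as did 50.2% of all genes. Their median was 0.84, against 0.003 for all genes, and it was 0.39 without Dnmt3a(+/-) replicate 2 and 1.11 without Dnmt3a(+/-) replicate 1. For none of the 8 genes did all Dnmt3a(+/-) tumors lie above all Dnmt3a(+/+) tumors in CPM, against 6.12% of all genes tested. P-values here measure the spread between these tumors, 1 per mouse as far as the labels say. The labels of Dnmt3a(+/-) replicates 2, 3 and 4 carry a further number, 2, that no other tumor's label has, and its meaning is not given. These were the tumors above every Dnmt3a(+/+) tumor for Avil, Trpm5 and Sh2d6. What the mark stands for cannot be told apart from the genotype in them.

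Other genes of the tuft cell program were examined by role. Of 7 transcription factors and cofactors, Pou2f3 and Gfi1b included, only Colca2 and Spib were tested. Colca2, a coactivator partner of Pou2f3, measured 0.78, 0.47 and 0.46 CPM in the Dnmt3a(+/+) tumors and 1.07, 0.79, 0.83 and 0.81 CPM in the Dnmt3a(+/-) tumors. The groups did not overlap, but narrowly, since Dnmt3a(+/+) replicate 1 was just below Dnmt3a(+/-) replicate 2. The same separation was seen for 6.12% of all genes tested. The log2 fold change of Colca2 was 0.63 ± 0.39 (SE, adjusted p = 0.584 by edgeR). Spib, an ETS factor that tuft cells share with B cells and M cells, ranged from 0.21 to 0.45 CPM with Dnmt3a(+/+) BM and from 0.00 to 3.01 CPM with Dnmt3a(+/-) BM (log2 fold change 1.62, standard error 1.27, adjusted p = 0.664 by edgeR). The homeobox genes Hmx2 and Hmx3 stayed at or below 0.134 CPM in every tumor.

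For the taste-type signaling cascade that feeds Trpm5, 6 of 11 genes were tested, Trpm5 among them, and none had an unadjusted p under 0.05. Itpr3, the inositol trisphosphate receptor of the cascade and also of other epithelial cells, was abundant and nearly equal, at 178 ± 22.7 CPM (SD, n = 3) and 168 ± 5.08 CPM (SD, n = 4). Plcg2, a phospholipase that leukocytes also use, had a log2 fold change of 0.71 ± 0.36 (SE, adjusted p = 0.507 by edgeR). Phospholipase Plcb2, which acts just upstream of Itpr3 in taste cells, had 0.13, and the sweet and umami receptor subunit Tas1r3 had 0.27. Genes that are more restricted to chemosensory cells, the G protein subunits Gnat3, Gng13 and Gnb3, stayed at or below 0.163 CPM and were not tested.

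In eicosanoid synthesis, 8 of 8 genes were tested, Alox5ap included. Of these, 6 had a log2 fold change above 0 and 2 below (7 and 1 on plain library sizes), with a median of 0.68, and of 0.06 without Dnmt3a(+/-) replicate 2. In that tumor Ptgs2, the inducible cyclooxygenase, measured 111 CPM, against 2.64 to 9.54 CPM in the other 6. Its log2 fold change was 2.15 ± 1.23 (SE, adjusted p = 0.551 by edgeR) with that tumor and -0.20 without it. Ptges, the prostaglandin E synthase, measured 36.3 CPM in the same tumor, and in the others 4.99 to 7.87 CPM with Dnmt3a(+/+) BM and 7.98 to 9.51 CPM with Dnmt3a(+/-) BM (log2 fold change 1.36, standard error 0.61, adjusted p = 0.466 by edgeR; 0.54 without that tumor). In that tumor the fibroblast markers summed to 1070 CPM, against 177 to 380 CPM in the others, and the macrophage markers to 611 CPM, against at most 170 CPM, and the part of those cells in either enzyme was not tested. Ptgs1, the constitutive cyclooxygenase that tuft cells express, had a log2 fold change of 0.87 ± 0.44 (SE, adjusted p = 0.511 by edgeR). Pla2g4a, the phospholipase that releases arachidonic acid, was the only one at an unadjusted p under 0.05, at -0.46 (unadjusted p = 0.0484 and adjusted p = 0.45 by edgeR). Leaving out 1 tumor at a time, its unadjusted p in edgeR ranged from 0.0271 to 0.187.

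A further 18 tuft cell genes, 14 of them tested, did not share a direction: 6 had a log2 fold change above 0 and 8 below, with a median of -0.12 (7 and 7, with 0.09, on plain library sizes). Inpp5j, an inositol polyphosphate 5-phosphatase gene, was the only one at an unadjusted p under 0.05. Inpp5j measured 35.9, 47.5 and 49.7 CPM in the Dnmt3a(+/+) tumors and 20.2, 17.5, 26.4 and 21.6 CPM in the Dnmt3a(+/-) tumors. Every Dnmt3a(+/-) tumor was below every Dnmt3a(+/+) tumor, as for 6.32% of all genes. The log2 fold change was -1.05 ± 0.19 (SE, unadjusted p = 0.000673, adjusted p = 0.361 by edgeR), and -1.13 in BMT18 alone. DESeq2 called this gene, with -1.04 and an adjusted p of 0.002, so that it was the only gene of the wider tuft cell lists called by either tool. Ptgs2 and Il1rl1 could not be called by DESeq2, which gave them no p-value. Nradd, a death domain receptor gene, was separated the other way, as were 6.12% of all genes. It measured 7.09, 2.78 and 7.98 CPM against 8.66, 10.0, 10.1 and 11.4 CPM, with a log2 fold change of 0.75 ± 0.37 (SE, adjusted p = 0.5 by edgeR). The other abundant genes of the list are not restricted to tuft cells: Lrmp had a log2 fold change of -0.98 (adjusted p = 0.715 by edgeR), with 6.83 CPM in Dnmt3a(+/-) replicate 2 against 67.2 to 269 CPM in the other tumors, Kctd12 had -0.49 and Skap2 -0.00.

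In the type 2 circuit that Il25 feeds, 10 of 16 genes were tested, 3 with a log2 fold change above 0 and 7 below, with a median of -0.20 (5 and 5 with a median of 0.01 on plain library sizes). The cytokines that lymphoid cells release in response to Il25 were close to absent: Il13 reached 0.183 CPM, Il4 0.0499 CPM and Il5 0.0203 CPM at most. Receptors and signaling genes through which the epithelium answers Il13 and Il4 were well expressed. Il13ra1 measured 193, 205 and 143 CPM in the Dnmt3a(+/+) tumors and 146, 123, 124 and 98.4 CPM in the Dnmt3a(+/-) tumors (log2 fold change -0.55, standard error 0.19, unadjusted p = 0.0218, adjusted p = 0.406 by edgeR). The groups overlapped by Dnmt3a(+/+) replicate 3 alone. Il4ra had -0.05 and Stat6 -0.07 (adjusted p = 0.972 and 0.932 by edgeR), and the epidermal growth factor receptor ligand Areg had -0.39 (adjusted p = 0.773 by edgeR).

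Il1rl1, the receptor of the alarmin Il33, which acts on the same lymphoid cells as Il25, measured 8.97, 13.8 and 15.7 CPM in the Dnmt3a(+/+) tumors and 19.8, 224, 22.8 and 31.7 CPM in the Dnmt3a(+/-) tumors. The groups did not overlap, and Dnmt3a(+/-) replicate 2 was far above the other 6 tumors. Every Dnmt3a(+/-) tumor was above every Dnmt3a(+/+) tumor for 6.12% of all genes tested. Its log2 fold change was 2.54 ± 0.95 (SE, unadjusted p = 0.0292, adjusted p = 0.42 by edgeR) and 0.98 without that tumor. Mast cells also bear this receptor. The sum of 11 mast cell markers, led by Mcpt1 and Kit, was 23.2 to 55.6 CPM with Dnmt3a(+/+) BM. With Dnmt3a(+/-) BM it was 15.2 to 150 CPM, highest in the same replicate 2, which was also highest in fibroblast and macrophage markers (1070 and 611 CPM). The other tumors did not keep this order. Dnmt3a(+/+) replicate 1 had a mast cell sum of 55.6 CPM and the lowest Il1rl1 level, 8.97 CPM. Dnmt3a(+/-) replicate 4 had the lowest mast cell sum, 15.2 CPM, and 31.7 CPM of Il1rl1. The part of mast cells in Il1rl1 was not tested.

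**Figure D4:**
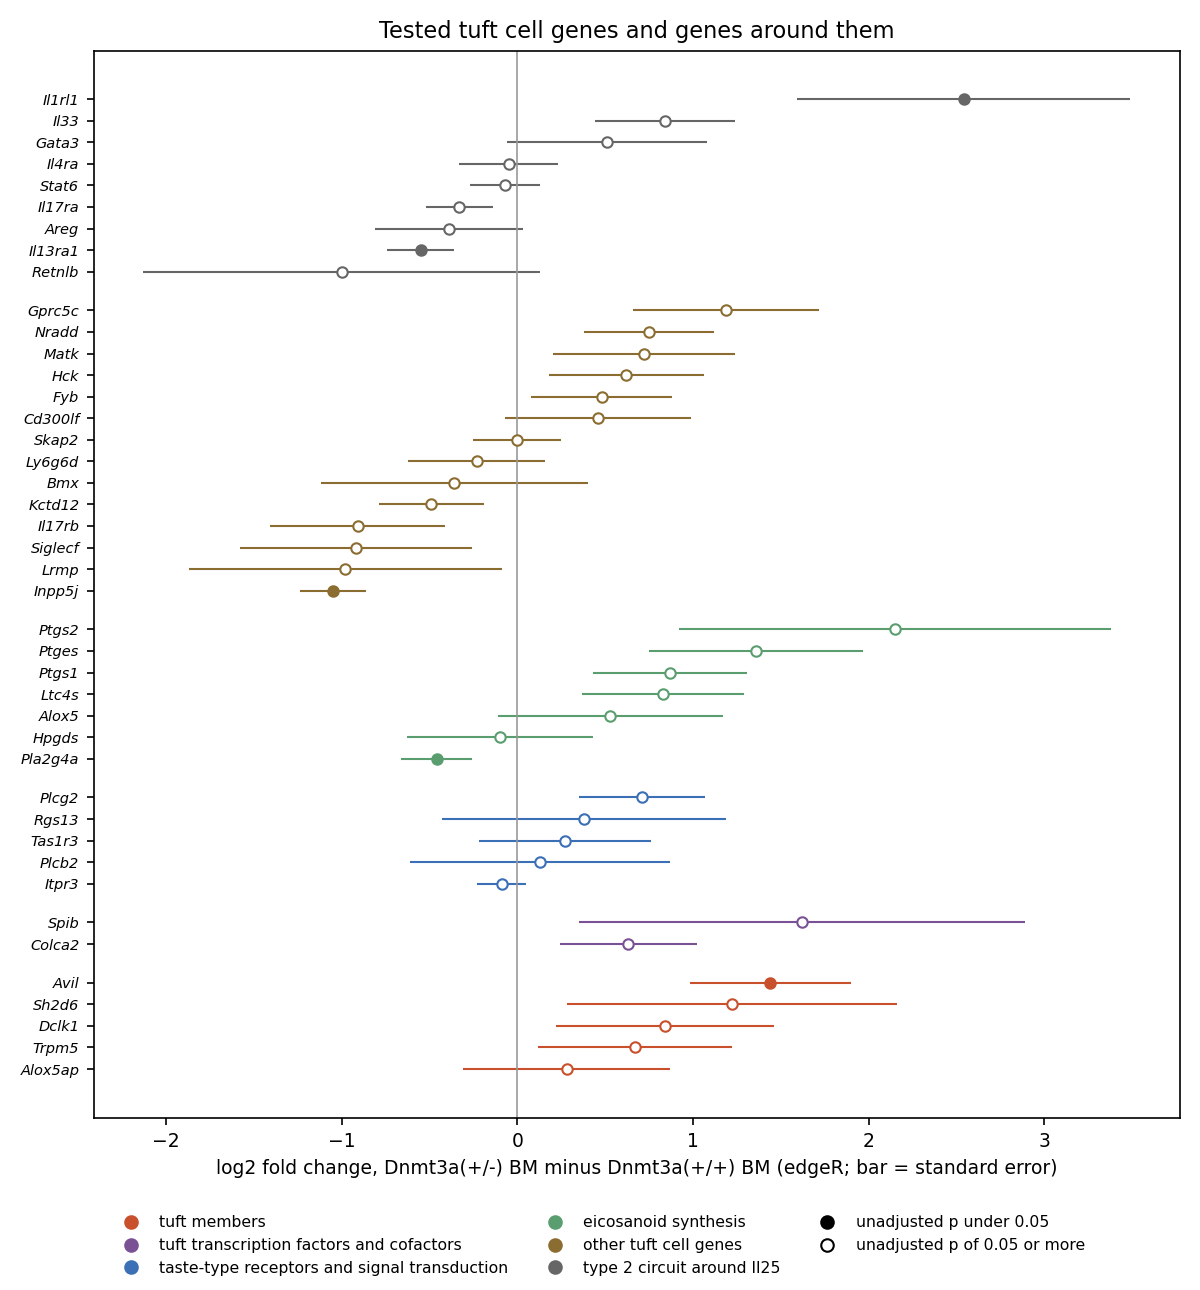
Log2 fold changes (horizontal axis, Dnmt3a(+/-) BM minus Dnmt3a(+/+) BM, edgeR; bars are standard errors) of each tested gene by list, with Trpm5 and Alox5ap drawn once, among the 8 tuft cell genes. All 5 tuft cell genes tested lie above 0 with wide bars, and filled points (Avil, Pla2g4a, Inpp5j, Il13ra1 and Il1rl1) have an unadjusted p under 0.05, of which none passed the adjustment.

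Epithelial cells of another secretory kind, the enteroendocrine cells, were compared in the same way. Of 10 enteroendocrine markers, led by Pyy and Chgb, 8 were tested, and all 8 had a log2 fold change below 0 (median -0.70, 0 at an unadjusted p under 0.05 by edgeR). Of all genes tested, 50.2% were above 0. The summed CPM was 43.6 to 168 with Dnmt3a(+/+) BM and 49.1 to 96.7 with Dnmt3a(+/-) BM, and 0 of them were called by DESeq2. The difference between these markers and the tuft cell genes was not tested.

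Finally, the genes whose pattern over the 7 tumors was most like that of the tuft cell genes were listed by Pearson's r of log2 CPM, as a description over 7 tumors that share libraries. Most like the mean of the 5 tested genes were Arap1 (0.985), AI427809 (0.981), Mfsd12 (0.981), Gpr179 (0.977), Zfp13 (0.975), Arhgef2 (0.975), Gm17189 (0.974), Hsph1 (0.971), Zfp940 (0.971) and Gm20544 (0.97). Each of these 10 was highest in Dnmt3a(+/-) replicate 2. Most like Trpm5 alone were Acnat1 (0.989), Tmem252 (0.977), Ric8b (0.976), Tiprl (0.974) and Il11ra1 (0.971). Most like Avil, a list added after seeing the data, were Nap1l1 (0.998), Cntrob (0.985), Nlrc3 (0.979), Lmnb1 (0.977) and Timeless (0.976). None of the 20 is among the tuft cell genes of the wider lists.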

How the data were processed

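RNA of 7 whole colon tumors was sequenced after poly(A) enrichment with a directional kit. Per the methods and the submitters' processing notes, the authors trimmed reads with Trimmomatic, mapped them to mouse build 38 (mm10) with STAR 2.7.3a and quantified genes with RSEM v1.2.31, and their own comparison used DESeq2. The annotation release and the strand setting are not given in the sources used here. The deposited values are the authors' estimated counts per gene, already whole numbers (100% of values) and not normalized, and no value column lacked a sample (0). Identifiers were matched to symbols in 42462 of 43346 cases, and rows without a symbol held 0.104% of counts. Positions and exon lengths are those of GENCODE M21.

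The group difference was fitted in R 4.3.3 by edgeR 4.0.16 (TMM, filterByExpr, quasi-likelihood test, Benjamini-Hochberg adjustment over all 15810 genes tested, no covariate), with calls where the adjusted p was under 0.05 and the log2 fold change beyond 1 in size. Single genes were also compared on log2 CPM (prior count 2) by an exact permutation test over the 35 splits, two-sided, with numpy 2.4.6. Ranks for Spearman's rho were taken with scipy 1.17.1. Alternatives were DESeq2 1.42.0, other scalings, no filter, robust dispersion, the experiment as a covariate, BMT18 alone, the replicate number as a block and each tumor left out. After seeing the data, 2 were added: leaving out the 2 tumors highest in squamous markers, and subtracting the epithelium markers. The highest Spearman correlation between 2 tumors was 0.984, and none were duplicates.

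The 8 genes, the lists and the tests were chosen with earlier results of these data known. Named genes were all 8, of each wider list those at an unadjusted p under 0.05 and the 4 with the highest mean CPM, and of each marker list the 2 highest by mean CPM; any other gene named was chosen after its values were seen. On simulated data for this comparison, 200 of 15810 genes were changed, and each gene had its own dispersion as estimated by edgeR. Here edgeR recovered 55 of 100 changed 4-fold and 70 of 100 changed 8-fold with 4 false calls, and DESeq2 72 and 84 with 84 false calls. The false calls depended on this setting. With a dispersion of 0.05 for every gene, edgeR recovered 99 and 100 with 3 false calls, and DESeq2 96 and 99 with 2 false calls.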

Additional observations from a re-analysis of the deposited data

Results flagged for a closer look

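Within the 4 Dnmt3a(+/-) tumors, 42 values were examined for a sample that stood apart. The gap to its nearest neighbor, divided by the range, had to exceed Dixon's 95% critical value for 4 samples, and 9 met this. About 2.1 (1 in 20) would be given by chance for normally distributed values. Most of the values are CPM, which need not be so distributed, so whether 9 exceeds chance cannot be told. Dnmt3a(+/-) replicate 1 stood apart for Pou2f3, at 1.40 CPM against 0.00 to 0.18 CPM in the others. It also stood apart for Colca2, at 1.07 CPM against 0.79 to 0.83 CPM, and for Stat6, at 120 CPM against 77.3 to 79.6 CPM. Dnmt3a(+/-) replicate 2 stood apart for Ptgs2 at 111 CPM, for Ptges at 36.3 CPM and for Il1rl1 at 224 CPM. The same tumor had the highest mean log2 CPM of the fibroblast markers, 5.89 against 3.77 to 4.07, and of the enteric neuron and glia markers, 1.32 against 0.60 to 0.72. Dnmt3a(+/-) replicate 4 stood apart for Kctd12, at 11.9 CPM against 24.9 to 26.3 CPM. Of the 8 tuft cell genes only Pou2f3 is in this group.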

How the results depend on the processing

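edgeR called 0 genes in every fit, and DESeq2 called 300 (233 higher, 67 lower), none of them among the 5 tuft cell genes tested. The other tuft cell genes were too low to enter the DESeq2 fit. At an unadjusted p under 0.05, edgeR counted 1744 genes, 873 without Dnmt3a(+/+) replicate 2 and 1142 without Dnmt3a(+/-) replicate 2. Leaving out 1 tumor at a time, the number of tuft cell genes at an unadjusted p under 0.05 ranged from 0, without Dnmt3a(+/+) replicate 1, to 2, without Dnmt3a(+/-) replicate 1 (Avil and Sh2d6). In the same fits the log2 fold change of Alox5ap ranged from -0.02 to 0.65, and the median of the eicosanoid genes from 0.06 to 0.92. Without the filter on low counts, the median of the other tuft cell genes was 0.24. Plain library sizes shifted the median of all genes by about 0.213 on the log2 scale, and the Avil value to 1.72. With the replicate number as a block, the median of the tuft cell genes was 0.63, Avil was at 1.55 and 0 genes were called. Same-numbered tumors deviated together only for replicate 1 (r = 0.56, 0.06 and -0.02 over 5000 genes), so the numbers were not taken to pair the tumors, and not every tumor correlated best with its own number. Setting Avil against the epithelium markers raised its difference from 1.63 to 2.13 and moved p from 0.0571 to 0.0286, by a shift of 0.50 that is the same for every gene. Of 213 repeats under alternatives, 206 were labeled as unchanged. This meant the same direction, a move by less than the spread where there was no test, or, for counts, a count that stayed at 0 or near its main value. Among the 206 are 15 repeats in which edgeR called 0 genes, as in the main fit. For single genes in the fits the label did not require the unadjusted p to stay on its side of 0.05. Avil without Dnmt3a(+/+) replicate 1 (unadjusted p = 0.0504 by edgeR) and Sh2d6 without Dnmt3a(+/-) replicate 1 (unadjusted p = 0.031 by edgeR) crossed it and are among the 206. Depth limits Il25, Gfi1b and Pou2f3, which had 0 to 89 counts over all 7 tumors.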

Other observations

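Macrophage markers summed to 611 CPM in Dnmt3a(+/-) replicate 2 and to at most 170 CPM in the other tumors, with 8 of 9 tested genes at a log2 fold change above 0 and 0 at an unadjusted p under 0.05 by edgeR. Fibroblast markers, led by Col3a1 and Dcn, had 9 of 9 above 0 and 1 at an unadjusted p under 0.05. Both lists were highest in Dnmt3a(+/-) replicate 2, which also had the highest Trpm5, Dclk1, Sh2d6, Avil and Alox5ap. Neutrophil markers, led by Ly6g and S100a9, summed to 250 to 315 CPM with Dnmt3a(+/+) BM and 190 to 296 CPM with Dnmt3a(+/-) BM, and their median log2 fold change was -0.06 (0.16 on plain library sizes). Of their 8 tested genes, Mmp9 had an unadjusted p under 0.05 (log2 fold change 2.47 by edgeR). Mmp9 was higher in every Dnmt3a(+/-) tumor than in any Dnmt3a(+/+) tumor, as were 6.12% of all genes tested. It was called by DESeq2 (adjusted p = 0.0409), as were 1.9% of all genes. Squamous epithelium markers had 5 of 10 above 0 and 5 below. Leukocyte markers had 7 of 10 above 0, and 10 of 10 on plain library sizes. Mast cell markers had 8 of 10 above 0, with 1 higher and 1 lower at an unadjusted p under 0.05, and megakaryocyte and erythroid markers had 3 of 6 above 0. Over all genes tested, 50.2% had a log2 fold change above 0. At an unadjusted p under 0.05 by edgeR, 5.83% of all genes were higher and 5.2% lower.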
